A study of Mus musculus with 7 samples.

Results

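Solute carriers are membrane proteins that move nutrients, ions, metals and metabolites across the plasma membrane and the membranes of organelles, driven by ion gradients or by the gradient of their own cargo. The mouse genes are named Slc, then a family number, then a letter and a member number, and members of a family are related in sequence and often, though not always, in cargo. In pluripotent cells they supply the amino acids, sugars, nucleosides, vitamins and metals on which rapid division draws. The genes described here were those whose symbol on the array began with Slc and a digit, apart from 7 transporter genes that the rule left out (Slc2a1, Slc2a3, Slc16a1, Slc16a3, Slc7a11, Slc22a18 and Slc38a4). The array named 319 such genes. Of these, 173 had a probe above the background of at least 1 array, at a detection p under 0.01, and formed the set, out of 9213 genes tested in all. The other 146 were above background on no array and were not followed. The 173 members fell into 47 families, and 4 of them share the name without being carriers (Slc9a3r1, Slc9a3r2, Slc4a1ap and Slc7a6os).

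RNA of 7 mouse cell lines had been labelled with biotin and hybridized to 1-colour Illumina bead arrays, with a single array for every line. Epiblast stem cell (EpiSC) lines were C1a1, E3, E5, OG2.1, OG2.2 and T9, which resemble the epiblast after implantation, and R1 was an embryonic stem cell (ESC) line, which resembles the epiblast of the blastocyst. The labels used here gave no strain, genotype, sex, passage or culture medium for any line. Each line was sampled once, so p-values measure the spread between lines, which includes culture and array. The test gives R1, with its 1 array, the variance found among the EpiSC lines. For genes below background in those lines, that is the spread of background values. Cell type therefore cannot be told apart from the R1 line or its array.

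The 7 arrays were similar in quality, with median probe signals between 123 and 131 and 10642 to 11574 of 25697 probes above background. Markers of the labelled cell types were read first. All 7 tested ESC markers were lower in the EpiSC lines by limma, and 4 of the 9 tested epiblast markers were higher. Of 5 tested visceral or parietal endoderm markers 3 were lower, namely Ttr (-1.43), Amn (-2.08) and Lama1 (-3.14), and of 2 tested neural markers Nes was higher (3.21). Of the 11 feeder cell and fibroblast markers, 4 to 7 were above background in the EpiSC lines and 5 in R1, and Col1a2, Col3a1, Lum and Postn were above it on no array. Of the 7 tested, Thy1 (2.54) and Mmp2 (2.04) were higher in EpiSCs. Signals of the 7 were also summed before the log2 was taken, so the brightest markers weigh most. That level was 12.21 in OG2.1, 12.07 in E5, 11.85 in OG2.2, 11.67 in C1a1, 11.13 in T9, 10.82 in E3 and 10.58 in R1. Of 7 red blood cell markers on the array, 4 were above background in OG2.1 and 1 at most on every other array. Of 6 definitive endoderm markers, 1 was above background in E5, 3 in OG2.2 and all 6 in the other EpiSC lines. The part of such cells in the results below was not tested, and in bulk RNA fewer cells of a type and less RNA per cell cannot be told apart.

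Levels below are normalized signals on the log2 scale with an added offset, which understates the change of dim genes. They are compared for the same gene between lines, never between genes. Between 130 members in OG2.1 and 141 in C1a1 were above background in the EpiSC lines, and 130 in R1. All 7 arrays showed 102 members above background, 59.0% against 67.8% of all genes. The other 71 included 11 that were above background in R1 and in no EpiSC line, or 6.36% of members against 3.71% of all genes, and 14 above it in all 6 EpiSC lines and not in R1, or 8.09% against 4.55%. Such members entered the set through the side on which they were high, so their differences between the cell types could have only 1 sign.

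The comparison of the EpiSC lines with R1 asked which carriers separate the cell types. The largest increases in EpiSCs were those of the metal importer Slc39a8, the lysosomal carrier Slc46a3 and the glutamate carrier Slc1a3. The largest decreases were those of the bile acid carrier subunit Slc51a, the organic cation carrier Slc47a1 and the acylcarnitine carrier Slc25a20. Limma, fitted over all genes with Benjamini-Hochberg adjustment, called 34 members at an adjusted p under 0.05, which is 19.7% of members against 15.2% of all genes. Of these, 16 were higher and 18 lower in EpiSCs, or 9.25% and 10.4% of members against 7.1% and 8.11% of all genes. Without background correction of the arrays the split was 12 higher and 22 lower. R1 lay below all 6 EpiSC lines for 52 members and above all 6 for 50, where 29.7% and 26.1% of all genes did so, and outside their range on either side for 59.0% of members against 55.8% of all genes. The median difference was 0.04 among members and 0.05 among all genes. These medians lay close together, and the share of members called was not far above that of the array. Among the called genes, 8 of the 16 higher were not above background in R1, and 9 of the 18 lower were above it in no EpiSC line. For those 9, SDs over the EpiSC lines ran from 0.075 (Slc7a1) to 0.40 (Slc12a8), and the median of all members was 0.34. Their SE and adjusted p rest on the spread of background values, not of expressed levels, and do not rank them against brighter genes.

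**Figure D1:**
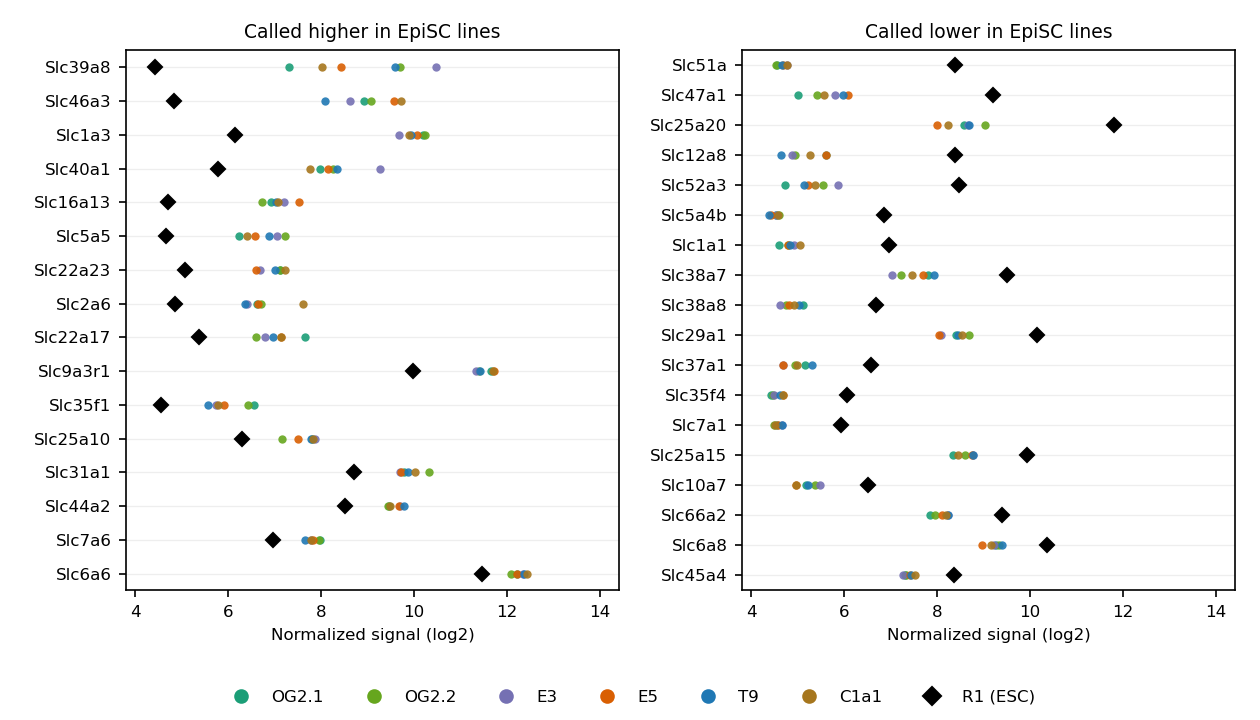
Normalized log2 signal of the 34 members called between cell types, 16 higher (left) and 18 lower (right) in the EpiSC lines, ordered by the size of the difference. Each circle is 1 EpiSC line (1 array) and the black diamond is the ESC line R1. R1 lies outside the range of the 6 EpiSC lines for each of these genes. Slc39a8 spans 7.30 to 10.46 over the EpiSC lines, while Slc51a stays between 4.54 and 4.77.

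Amino acid and peptide carriers formed the largest group, with 30 members, of which 3 were called higher and 6 lower. Over all genes 7.1% were called higher and 8.11% lower. The counts of this group and of those below stand beside these shares, and no group was tested as a set. Glutamate carriers were called in both directions. Slc1a3, the sodium-coupled glutamate and aspartate carrier known from astrocytes, was at 9.68 to 10.22 in the EpiSC lines (median 9.995) and at 6.14 in R1. All 6 EpiSC lines lay close together and far above R1, a difference of 3.86 (SE 0.27, adjusted p = 7.15e-05). Slc1a1, the glutamate and cysteine carrier of neurons and kidney, was at 4.59 to 5.04 in the EpiSC lines (median 4.81), below background in each, and at 6.97 in R1. It was at least 2.66-fold lower in EpiSCs (adjusted p = 8.95e-04), and its second probe was also called lower. The glutamate carrier Slc1a6 and the neutral amino acid carriers Slc1a4 and Slc1a5 of the same family were not called.

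Among the sodium-coupled neutral amino acid carriers of the Slc38 family, 2 of 7 were called, both lower. Slc38a7, which exports glutamine from lysosomes, was at 7.02 to 7.93 in the EpiSC lines (median 7.57) and at 9.51 in R1, a difference of -1.99 (SE 0.36, adjusted p = 0.00895). Slc38a8 was above background in R1 alone, at 6.68, and at least 2.17-fold lower in EpiSCs (adjusted p = 0.00285). At the other end of the family, Slc38a5, an exchanger of glutamine, histidine and serine for protons, was at 6.58 to 8.27 in the EpiSC lines (median 7.15) and not above background in R1. R1 lay below all 6 lines, and the EpiSC mean was at least 3.17-fold higher, yet the gene missed the threshold (log2 2.004, SE 0.59, adjusted p = 0.0581). It passed without E3 (2.16, adjusted p = 0.0427) and in the deposited values (2.63, adjusted p = 0.0434), and in no other setting.

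The cationic and heteromeric carriers of the Slc7 family had 1 call each way among 7 members. Slc7a6, a light chain that exchanges cationic for neutral amino acids, was at 7.64 to 7.97 in the EpiSC lines (median 7.80) and at 6.97 in R1 (0.85, SE 0.23, adjusted p = 0.0406). That call ended when any 1 EpiSC line or both OG2 lines were left out, and with a trended and robust variance. Slc7a1, a plasma membrane arginine and lysine carrier, was faint on this array: it was above background in R1 alone, at 5.93, and at least 1.30-fold lower in the EpiSC lines (adjusted p = 0.00454). Slc7a8, a light chain for neutral amino acids, was at 5.86 to 7.85 in the EpiSC lines (median 6.49) and not above background in R1, and did not pass (1.85, SE 0.67, adjusted p = 0.106). Slc7a3, a second carrier of arginine and lysine, was at 12.48 to 13.89 in the EpiSC lines and at 12.13 in R1, and the 95% interval of its difference ran from -0.15 to 1.94. The large neutral amino acid carrier Slc7a5 was at 11.34 to 12.79 against 12.56 in R1 (interval -1.73 to 0.88), and its heavy chain partner Slc3a2 at 6.12 to 7.15 against 7.68 (interval -1.89 to -0.12, adjusted p = 0.127).

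In the Slc6 family, 1 of 5 members was called higher and 1 lower. The creatine carrier Slc6a8 was at 8.96 to 9.40 in the EpiSC lines (median 9.25) and at 10.36 in R1, a difference of -1.14 (SE 0.24, adjusted p = 0.0160). The taurine carrier Slc6a6 was at 12.09 to 12.43 in the EpiSC lines (median 12.28) and at 11.45 in R1 (0.82, SE 0.23, adjusted p = 0.0473). Its call ended when any 1 EpiSC line or both OG2 lines were left out, in the deposited values and with median scaling. For both genes the 6 EpiSC lines lay close together and apart from R1. Slc6a13, a carrier of GABA and taurine, had the family's largest difference and was not called (1.67, SE 0.77, adjusted p = 0.199). Slc66a2 was lower in EpiSCs as well (-1.30, SE 0.24, adjusted p = 0.00986).

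**Figure D2:**
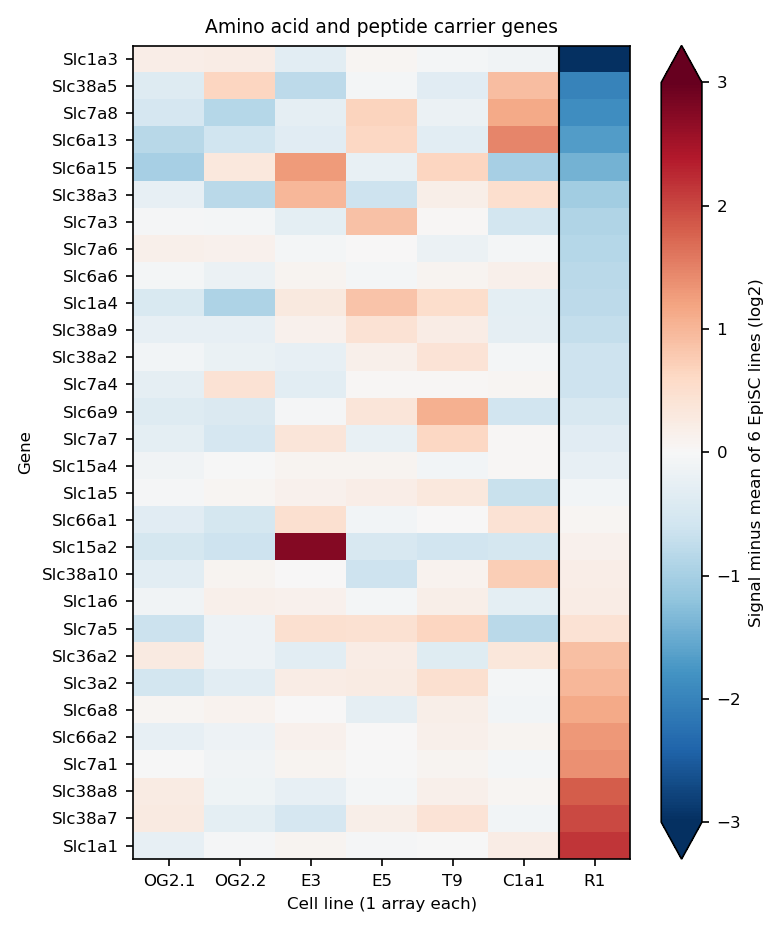
Signal of the 30 amino acid and peptide carrier genes on each array minus the gene's mean over the 6 EpiSC lines, on the log2 scale (red above, blue below, the scale ends at -3 and 3). Genes run from the highest to the lowest EpiSC minus R1 difference, from Slc1a3 (3.86) to Slc1a1 (-2.14), and R1 is the column right of the line. Slc15a2 stands out in E3 (7.76, against at most 4.54 in the other EpiSC lines).

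Metal carriers had 20 members, with 3 called higher and 0 called lower. Slc39a8, an importer of zinc, manganese and iron, was at 7.30 in OG2.1, 8.01 in C1a1, 8.43 in E5, 9.58 in T9, 9.70 in OG2.2 and 10.46 in E3, and at 4.43 in R1. Every EpiSC line was above background and R1 was not, so the gene was at least 9.32-fold higher (a fitted difference of 4.49, SE 1.03, adjusted p = 0.0235). The call ended without background correction (2.55) and with no detection filter. A second, dimmer probe of Slc39a8 was also highest in E3, OG2.2 and T9 and lowest in OG2.1, and was not called (1.27, adjusted p = 0.206). Slc40a1, which encodes ferroportin, the iron exporter, was at 7.75 to 9.26 in the EpiSC lines (median 8.19) and at 5.77 in R1, a difference of 2.51 (SE 0.49, adjusted p = 0.0112). It too was highest in E3. Slc31a1, the high-affinity copper importer, was at 9.70 to 10.32 (median 9.82) against 8.71 in R1 (1.19, SE 0.28, adjusted p = 0.0276), and its call ended without T9. Among 7 tested genes of zinc and iron handling that are no solute carriers, 1 was called. This was Tfrc, the gene of the transferrin receptor, which takes up iron. It was lower in the EpiSC lines (-1.67, SE 0.30, adjusted p = 0.00869), at 9.72 to 10.49 against 11.81 in R1.

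The other 17 metal carriers were not called, though R1 lay outside the range of the EpiSC lines for some of them. Of the 10 zinc importer genes of the Slc39 family, 5 had a positive and 5 a negative difference. Slc39a4, the intestinal zinc importer, had the lowest, at 6.02 to 8.61 in the EpiSC lines and above all of them, at 9.07, in R1 (-1.59, SE 0.81, adjusted p = 0.242). None of the 4 zinc efflux genes of the Slc30 family was called. Slc11a1, a metal carrier known from macrophage phagosomes, gave a mixed picture and was picked out after its values were seen. Its brighter probe read 11.22 to 12.60 in the EpiSC lines and 11.01 in R1 (0.86, adjusted p = 0.342), whereas its other probe was above background in R1 (7.46) and at 4.39 to 4.96 in the EpiSC lines (-2.88, adjusted p = 3.19e-04). The direction for this gene is therefore not settled.

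The Slc25 family, mostly mitochondrial carriers, had 1 call higher and 2 lower among 28 members, and 14 differences of each sign. Slc25a24 was not called on its brighter probe (0.54), while its other probe was called higher (1.71, adjusted p = 0.0213). Slc25a20 exchanges carnitine and acylcarnitine across the inner membrane and so brings long-chain fatty acids to beta-oxidation. It was at 7.995 to 9.02 in the EpiSC lines (median 8.61) and at 11.80 in R1, so that all 6 lines lay far below R1 (-3.28, SE 0.37, adjusted p = 9.62e-04). Its second probe showed the same (-2.77). The ornithine carrier of the urea cycle, Slc25a15, was lower by a smaller amount (-1.31, SE 0.25, adjusted p = 0.0112), with both probes called. Slc25a10, the dicarboxylate carrier, was at 7.14 to 7.87 in the EpiSC lines (median 7.78) and at 6.30 in R1 (1.35, SE 0.31, adjusted p = 0.0233). Slc25a13, the aspartate and glutamate carrier citrin, was above background in R1 (7.91), OG2.1, T9 and C1a1 and in no other line, and was not called (-2.38, SE 0.75, adjusted p = 0.0710). It passed without C1a1 (-2.63, adjusted p = 0.0305). The ADP and ATP exchanger Slc25a5 and the phosphate carrier Slc25a3 were at -0.16 (95% interval -0.76 to 0.44) and -0.30 (-0.94 to 0.35).

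Vitamin, choline and nucleoside carriers had 2 calls higher and 2 lower among 15 members. Slc46a3, a lysosomal membrane carrier related to the folate carrier, was at 8.07 in T9, 8.61 in E3, 8.92 in OG2.1, 9.08 in OG2.2, 9.56 in E5 and 9.71 in C1a1. R1, at 4.82, was not above background, so the gene was at least 9.85-fold higher in EpiSCs (a fitted difference of 4.17, SE 0.56, adjusted p = 0.00219). The choline carrier-like gene Slc44a2 was higher by 1.07 (SE 0.24, adjusted p = 0.0201), a call lost when its 3 probes were averaged. In the opposite direction, the riboflavin carrier Slc52a3 was at 4.72 to 5.87 in the EpiSC lines, above background in E3 alone among them, and at 8.46 in R1 (-3.15, SE 0.39, adjusted p = 0.00147). The nucleoside carrier Slc29a1 was at 8.04 to 8.69 (median 8.42) against 10.14 in R1 (-1.77, SE 0.30, adjusted p = 0.00654), and the other 3 members of its family were not called. Adk, which phosphorylates adenosine, moved the other way among the nucleoside kinases (1.65, SE 0.32, adjusted p = 0.0107).

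Carriers of organic solutes had 3 calls each way among 22 members, with the most negative difference of the whole set. Slc51a, a subunit of the basolateral bile acid and steroid carrier, was at 4.54 to 4.77 in the EpiSC lines (median 4.67), below background in all 6, and at 8.38 in R1. It was at least 7.05-fold lower in EpiSCs (a fitted difference of -3.71, SE 0.22, adjusted p = 3.44e-05). Slc47a1, which extrudes organic cations and drugs, was at 5.01 to 6.08 (median 5.68) against 9.20 in R1 (-3.56, SE 0.39, adjusted p = 8.38e-04), and all 3 of its probes were called lower. Slc10a7, a relative of the bile acid carriers, was above background in R1 alone and at least 1.92-fold lower (adjusted p = 0.0151). The 3 higher genes were above background in all 6 EpiSC lines and not in R1. The monocarboxylate carrier family gene Slc16a13 was at least 2.61-fold higher (adjusted p = 0.00188), the orphan Slc22a23 at least 2.40-fold (adjusted p = 0.00454) and Slc22a17, known as a lipocalin receptor, at least 2.55-fold (adjusted p = 0.0194). Without background correction the Slc22a17 call ended. None of the 5 fatty acid carrier genes of the Slc27 family was called, and their differences ran from -0.91 for Slc27a3 to 0.77 for Slc27a6.

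The sugar families, which here include the mixed Slc5 family, had 2 calls higher and 3 lower among 15 members. The iodide carrier Slc5a5 was at 6.22 to 7.22 in the EpiSC lines (median 6.72) and the lysosomal glucose carrier Slc2a6 at 6.35 to 7.61 (median 6.63). Neither was above background in R1, and each was at least 2.04-fold higher in EpiSCs (adjusted p = 0.0103 and 0.0249). The Slc2a6 call ended without background correction and with both OG2 lines removed. Slc5a4b, of the sodium and glucose cotransporter family, and the sugar phosphate carrier Slc37a1 were above background in R1 alone, at 6.85 and 6.58, and at least 2.44-fold and 2.02-fold lower in EpiSCs (adjusted p = 3.52e-04 and 0.00860). Whether the probe tells Slc5a4b from its close relative Slc5a4a was not tested. Slc45a4 was lower by a smaller amount (-0.99, SE 0.22, adjusted p = 0.0193), and the call was lost with both OG2 lines removed.

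Where 15.2% of all genes were called, inorganic ion carriers were the carrier group with the fewest calls, 1 among 21 members. This was Slc12a8, of the cation and chloride cotransporter family, at 4.63 to 5.61 in the EpiSC lines (median 5.10), below background in all 6, and at 8.37 in R1. It was at least 7.03-fold lower in EpiSCs (a fitted difference of -3.22, SE 0.40, adjusted p = 0.00148). The other 5 members of the family were not called, and Slc12a9 came nearest in the opposite direction (0.68, SE 0.21, adjusted p = 0.0675). Of 18 nucleotide sugar carriers and relatives in the Slc35 family, 1 was called each way, and both were orphans. Slc35f4 was above background in R1 alone and at least 1.41-fold lower (adjusted p = 0.00365). Slc35f1 was at least 1.24-fold higher (adjusted p = 0.0443), and its call ended without OG2.2, E3, E5 or C1a1 and under 3 of the other settings. Among the 4 genes that are not carriers, Slc9a3r1, a scaffold protein that anchors membrane transporters to the cytoskeleton, was at 11.33 to 11.71 in the EpiSC lines (median 11.53) and at 9.98 in R1 (1.55, SE 0.25, adjusted p = 0.00528).

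**Figure D3:**
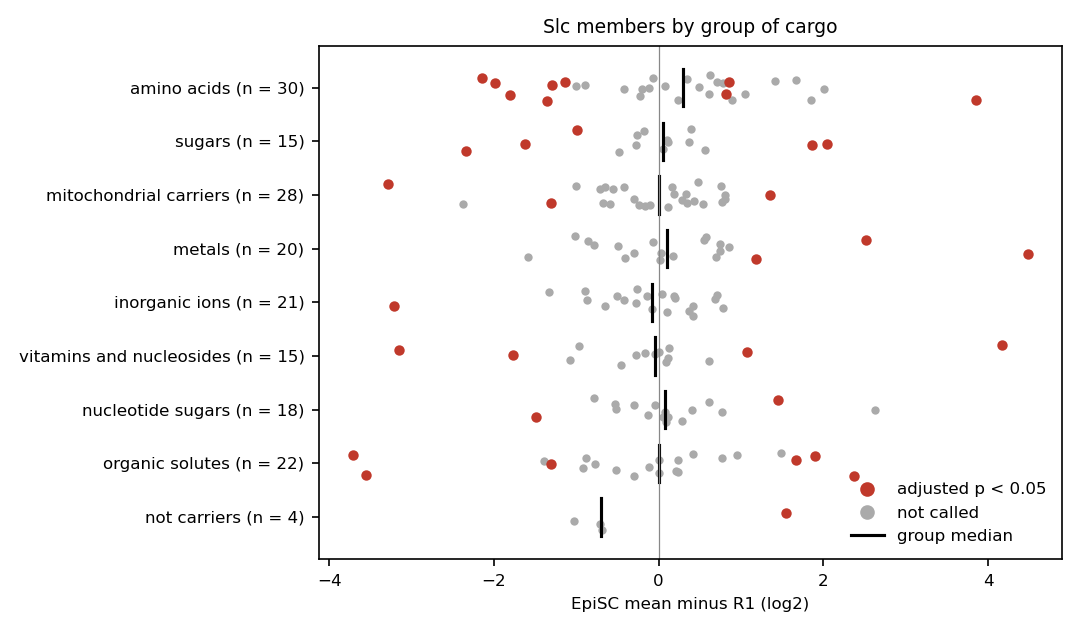
Difference of each of the 173 members, EpiSC mean minus R1 on the log2 scale, by group of cargo. Red points passed limma at an adjusted p under 0.05, grey points did not, and black bars are group medians. Medians of the 8 carrier groups lie between -0.08 and 0.29, while single genes reach from -3.71 (Slc51a) to 4.49 (Slc39a8).

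Start site regions are shown for the 2 largest called increases and decreases that RefSeq's promoter table holds, so that the genes with the widest separation can be seen side by side. Each run covers 250 bases before to 50 after the annotated start, read 5′ to 3′ on the gene's strand in GRCm38.p6, with CG dinucleotides in capitals. Slc39a8 (chr3:135825029-135825328, plus strand, the first of 2 listed starts) held 12 CG dinucleotides and Slc46a3 (chr5:147894766-147895065, minus strand) held 23. Slc51a (chr16:32487830-32488129, minus strand) held 3, and Slc25a20 (chr9:108661886-108662185, plus strand) held 13.
Slc39a8: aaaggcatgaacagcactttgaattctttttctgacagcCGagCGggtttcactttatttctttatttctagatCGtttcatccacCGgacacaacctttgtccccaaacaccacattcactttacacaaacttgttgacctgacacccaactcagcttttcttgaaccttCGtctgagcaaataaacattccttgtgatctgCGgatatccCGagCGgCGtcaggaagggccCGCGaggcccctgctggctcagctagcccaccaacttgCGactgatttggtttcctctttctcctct
Slc46a3: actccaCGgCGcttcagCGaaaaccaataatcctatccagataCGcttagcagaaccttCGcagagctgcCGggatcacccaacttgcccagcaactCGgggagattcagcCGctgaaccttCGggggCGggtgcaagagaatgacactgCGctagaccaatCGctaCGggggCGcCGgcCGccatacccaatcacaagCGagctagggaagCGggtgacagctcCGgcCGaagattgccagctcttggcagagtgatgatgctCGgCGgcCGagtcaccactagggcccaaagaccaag
Slc51a: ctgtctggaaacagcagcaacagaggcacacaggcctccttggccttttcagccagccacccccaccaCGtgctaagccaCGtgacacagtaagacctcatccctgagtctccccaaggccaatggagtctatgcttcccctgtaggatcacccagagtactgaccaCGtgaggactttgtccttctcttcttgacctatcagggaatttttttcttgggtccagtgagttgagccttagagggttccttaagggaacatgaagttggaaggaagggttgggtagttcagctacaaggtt
Slc25a20: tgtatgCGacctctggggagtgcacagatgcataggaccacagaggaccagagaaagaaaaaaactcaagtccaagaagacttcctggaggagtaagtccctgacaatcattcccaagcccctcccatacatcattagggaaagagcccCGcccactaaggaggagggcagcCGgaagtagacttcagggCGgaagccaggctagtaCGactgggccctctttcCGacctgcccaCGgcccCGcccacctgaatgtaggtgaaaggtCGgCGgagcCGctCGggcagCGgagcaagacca

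The table held 137 of the 173 members. At least 10 CG dinucleotides were present in 82.5% of them, against 82.8% of the 7492 tested genes in the table, and in 12 of 13 members called higher and 9 of 13 called lower. The E-box CACGTG, which reads the same on both strands, was present in 12.4% of members and 10.1% of tested genes. The Slc51a region held 3 copies of it, as many as 16 tested genes (0.214%) hold or exceed. The sequence TCAAGGTCA, a half-site of the type bound by the ESC factor Esrrb, was searched on both strands and found in 0 of 137 members and in 0.280% of tested genes. The sequence TGATGNAA, of the type bound by ATF4, a factor of the response to scarce amino acids, was found on either strand in 2.30% of tested genes and in 4 members (Slc1a4, Slc26a10, Slc50a1 and Slc7a7), none of them called. These are descriptions of letters in a fixed window.

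Genes of other transporters, of carrier partners and of enzymes that use the same cargo were read in 11 lists. Of 83 tested genes, 6 were higher and 6 lower in EpiSCs, together 14.5% against 15.2% of all genes, so their share of calls was near the background. Emb, the embigin gene, whose protein escorts monocarboxylate carriers to the membrane, was at 12.06 to 13.49 in the EpiSC lines and at 9.66 in R1 (3.25, SE 0.48, adjusted p = 0.00365). Stk39, a kinase that regulates cation and chloride cotransporters, was not above background in R1 and was at least 9.32-fold higher (adjusted p = 0.00148), while Nedd4l, a ubiquitin ligase of membrane transporters, was lower (-1.27, SE 0.31, adjusted p = 0.0304). Of 17 ABC transporter genes 1 was called, the drug pump Abcb1b (-1.83, SE 0.44, adjusted p = 0.0286). The lipid carrier Mfsd2a was at least 5.22-fold higher (adjusted p = 5.84e-04), and 2 of 3 aquaporins were lower, the glycerol and water channel Aqp3 by at least 66.3-fold (adjusted p = 1.58e-05) and Aqp8 by at least 1.91-fold (adjusted p = 0.0236). The pump subunit Atp1b2 was lower (-1.72, SE 0.33, adjusted p = 0.0113) and the mitochondrial creatine kinase Ckmt1 higher (1.33, SE 0.26, adjusted p = 0.0111). No enzyme of serine, glycine and threonine use (10 tested) or of glutamine, glutamate and aspartate use (7 tested) passed the test.

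The EpiSC lines were then compared with each other, since the series is about differences among them. The median SD of a member over the 6 lines was 0.34, and that of all genes 0.33. A span of at least 2 on the log2 scale between the highest and the lowest line was seen for 11 members, 6.36% against 7.4% of all genes, and an SD of at least 1 for 4 members, 2.31% against 3.5%. Both shares were near those of the array. At the steady end, 27 members had an SD under 0.2, among them Slc5a4b, Slc7a1, Slc51a and Slc35f4, which were below background in all EpiSC lines. Between pairs of EpiSC lines, 5 (E3 and T9) to 24 members (OG2.1 and E3) were at least 1 apart, against 51 (T9) to 60 (E5) between an EpiSC line and R1. Over all pairs of EpiSC lines these were 2.89% to 13.9% of members against 5.47% to 14.2% of all genes, and with R1 29.5% to 34.7% against 25.4% to 29.8%, so the wider gap to R1 was one of the whole array.

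**Figure D4:**
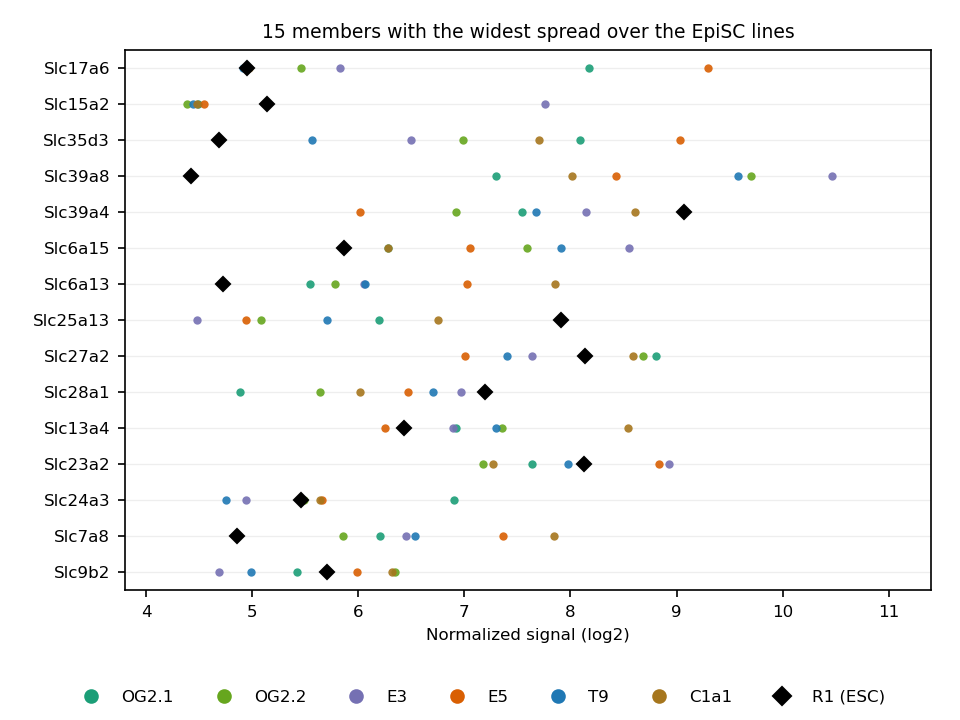
Normalized log2 signal of the 15 members with the largest SD over the 6 EpiSC lines, widest at the top. Circles are EpiSC lines and black diamonds R1, 1 array each. Slc17a6 is high in E5 (9.29) and OG2.1 (8.18), Slc15a2 in E3 alone (7.76), and Slc39a8 and Slc35d3 spread over more than 3 log2 units with every EpiSC line above R1.

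Over the comparisons of each line with the other 5, limma called 1 member. Slc15a2, a proton-coupled carrier of di- and tripeptides, was at 7.76 in E3 and at 4.49 in OG2.1, 4.39 in OG2.2, 4.54 in E5, 4.45 in T9 and 4.48 in C1a1, with R1 at 5.14. It was above background on the E3 array alone, at least 4.61-fold higher there than in the other 5 lines (a fitted difference of 3.29, SE 0.21, adjusted p = 0.00641). Because the gene entered the set through E3 alone, this difference could have only 1 sign. E3 had 6 calls over all genes, 0.0651%. E3 also had the highest signal of Slc39a8 (10.46), the ascorbate carrier Slc23a2 (8.93) and the neutral amino acid carrier Slc6a15 (8.56). At the lower end, Slc25a13 and the sodium and proton exchanger Slc9b2 were not above background in E3 and differed from the mean of the other lines by -1.26 and -1.13 (adjusted p = 0.868 and 0.839).

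Limma called 0 members in the other 5 lines, where 4 genes in all were called in OG2.1 (0.0434%), 1 in T9 (0.0109%), 6 in C1a1 (0.0651%) and 0 in OG2.2 and E5. At an unadjusted p under 0.05 the members numbered 11 in OG2.1 (6.36% against 5.98% of all genes), 5 in OG2.2 (2.89% against 5.29%) and 12 in E3 (6.94% against 6.23%). They numbered 10 in E5 (5.78% against 8.1%), 5 in T9 (2.89% against 2.18%) and 11 in C1a1 (6.36% against 6.07%). None of these shares was far above the background. The values of the members with the largest differences follow as descriptions of single arrays.

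Slc17a6, the vesicular glutamate carrier of excitatory neurons, had the widest spread of the set, with an SD of 1.84. It was at 9.29 in E5, 8.18 in OG2.1, 5.83 in E3, 5.46 in OG2.2, 4.97 in C1a1 and 4.91 in T9, and at 4.95 in R1. Only E5, OG2.1 and E3 were above background, and E5 lay 3.43 above the mean of the other lines (SE 1.13, adjusted p = 0.514). Slc35d3, a nucleotide sugar carrier family gene, followed a similar order at the top. It was at 9.03 in E5, 8.09 in OG2.1, 7.70 in C1a1, 6.99 in OG2.2, 6.50 in E3 and 5.56 in T9, and not above background in R1 (4.69). E5 and T9 differed from the mean of the other lines by 2.06 and -2.101 (adjusted p = 0.613 and 1.00). Dcn, 1 of the 7 tested feeder cell and fibroblast markers, was also highest in E5 (9.30) and OG2.1 (8.99). C1a1 (6.82), OG2.2 (5.81), T9 (4.96) and E3 (4.69) followed. Among the EpiSC lines, Fstl1 and Loxl1 were highest in E5 and OG2.1 as well. R1 lay below both lines for Fstl1 (9.28) and above both for Loxl1 (7.06). Thy1 was highest in E5 (9.61) and then C1a1 (8.74), and Fbln1 in OG2.1 (10.10) and then OG2.2 (9.59). Mmp2 and Col1a1 were highest in OG2.2 (10.55 and 5.99). The part of such cells in the levels of Slc17a6 and Slc35d3 was not tested. Neighbours in these orders cannot be separated, since each line had 1 array.

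E5 was low for other carriers. Slc39a4, the zinc importer, was at 6.02 in E5 and at 6.92 to 8.61 in the other EpiSC lines (-1.76, SE 0.57, adjusted p = 0.501). The fatty acid carrier and acyl-CoA synthetase Slc27a2 was at 7.01 in E5 and at 7.40 to 8.81 in the others (-1.22, SE 0.58, adjusted p = 0.645). In E5, 1 of 6 definitive endoderm markers was above background, as given above, and the part of this in the E5 values was not tested. OG2.1, the line with red blood cell markers, had the highest signal of Slc24a3, a sodium, potassium and calcium exchanger, at 6.90 against 4.75 to 5.66 (1.60, SE 0.41, adjusted p = 0.506). It had the lowest of Slc28a1, a concentrative nucleoside carrier, at 4.89 and below background, against 5.64 to 6.97 in the other lines (-1.47, SE 0.49, adjusted p = 0.755). OG2.1 also had the lowest Slc39a8, with a difference of -1.94 from the mean of the others (adjusted p = 0.839).

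In C1a1 the GABA and taurine carrier Slc6a13 was at 7.86, against 5.55 to 7.02 in the other EpiSC lines (1.76, SE 0.51, adjusted p = 0.648). The sulfate carrier Slc13a4 was at 8.55 in C1a1 and at 6.25 to 7.36 elsewhere (1.60, SE 0.42, adjusted p = 0.601), and R1, at 6.43, lay within that lower range. In T9 the glycine carrier Slc6a9 was at 8.26, against 6.63 to 7.55 in the other EpiSC lines (1.27, SE 0.38, adjusted p = 1.00). OG2.2 had the lowest signal of Slc1a4 (8.21, against 8.70 to 10.01). Its largest difference upward was in the mitochondrial uncoupling protein family gene Slc25a27 (5.92, against 4.55 to 4.98, and above background on that array alone).

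Further amino acid carriers are given line by line, chosen after their values were seen and with no call among them. Slc7a5 was at 12.79 in T9, 12.63 in E3, 12.59 in E5, 11.99 in OG2.2, 11.50 in OG2.1 and 11.34 in C1a1. Its heavy chain Slc3a2 was highest in T9 (7.15) as well, and lowest in OG2.1 (6.12). Slc1a4, which carries alanine, serine and cysteine, was highest in E5 (10.01) and lowest in OG2.2 (8.21).

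In all, 25 members were above background on exactly 1 array, 11 of them on R1. The 14 others were spread over the EpiSC lines, with 3 each in OG2.1, E3 and C1a1, 2 each in OG2.2 and E5 and 1 in T9. Besides Slc15a2 they were faint. The brightest in each other line were the inositol carrier Slc2a13 in OG2.1 (5.86), Slc25a27 in OG2.2 (5.92), Slc45a1 of the sugar carrier family in E5 (6.21), Slc24a4 in T9 (5.69) and the mitochondrial basic amino acid carrier Slc25a29 in C1a1 (5.72). The lowest normalized value among probes above background was 5.38 to 5.70 over the 7 arrays, so these genes stood close to that floor.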

How the data were processed

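The members, gene lists, groups of cargo and naming rules were chosen with earlier results of these data known. The authors deposited an intensity per probe and array, not normalized and summarised over beads, and a detection p-value beside it, per the file headers. The submitters' processing notes name BeadStudio 3.2, RMA and lumi. The authors also deposited log2 values of the same arrays, with a median of 3.98 in each of the 7 columns. Their background step and settings are unknown here. Over the kept probes, deviations from the probe mean in each log2 column followed those of its own array's log intensities (r of at least 0.856) and less those of any other (r of at most 0.303).

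Signals were background-corrected and quantile normalized by neqc (limma 3.58.1), with detection p-values as the guide and an offset of 16. Named probes above background (detection p under 0.01) anywhere numbered 12626, and the brightest stood for its gene, giving 9213 genes. Of 25697 probes, 23978 had a symbol in the platform annotation and 1719 had none. More than 1 kept probe was present for 38 members, and 0 had probes called in opposite directions. For 3 members the brightest probe was not called but another was, namely Slc11a1, Slc25a24 and Slc16a6 (-1.64, adjusted p = 0.0456). The number of arrays limits the precision.

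Limma was fitted over all genes, 2-sided, and adjusted p-values (Benjamini-Hochberg) under 0.05 were called. The residual degrees of freedom were 5 for EpiSC minus ESC and 4 for each line minus the other 5. On simulated data of 9213 genes with 200 changed, the first test recovered 0%, 60% and 95% of log2 changes of 1, 2 and 4, and the second 0%, 54% and 91.5%. False calls numbered 0 to 10. In the data the first test called 1401 genes, so its adjusted threshold was less strict than in the simulation. The second test called far fewer genes in each line than were changed in the simulation, so its adjusted threshold was stricter in the data. Neither set of rates is therefore the sensitivity of its test here. For a gene with no probe above background on a side, the fold given is a lower bound, taken against each array's lowest value above background or the gene's own where that was higher.

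Named members were up to 15 called each way, the extremes of families with 5 or more members, up to 10 on-off members each way, the 15 widest over the lines, the 2 highest and 2 lowest per line with any called, up to 3 seen on 1 array alone, and up to 2 companion genes per list and direction. Called genes beyond 15 were added so that all are named, and other members to complete a family or a motif count. Slc11a1, Slc16a6, Slc25a24, Slc7a3, Slc7a5, Slc3a2, Slc25a3 and Slc25a5 were added after their values were seen. The alternatives were the authors' deposited log2 scale, uncorrected background, scaling by medians, all probes, a detection limit of 0.05, averaged probes, a trended and robust variance, and the removal of each EpiSC line. Removal of both OG2 lines was added after the data had been seen.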

Additional observations from a re-analysis of the deposited data

Results flagged for a closer look

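Of 65 named members, 7 had an EpiSC line whose gap to its nearest neighbour exceeded 0.625 of the range over the 6 lines, Dixon's limit for 6 samples. Chance alone flags about 1 in 20 groups, and each of the 7 was a line standing high. Slc15a2 in E3 was at 7.76, with the next line at 4.54. Slc2a13 in OG2.1 was at 5.86, with the next at 4.59, and Slc25a18 in OG2.1 at 5.84, with the next at 4.90. Slc25a27 in OG2.2 was at 5.92 (next 4.98) and Slc45a1 in E5 at 6.21 (next 5.12). Slc41a2 in E3 was at 5.72 (next 4.87), and Slc2a6 in C1a1 at 7.61 (next 6.71). Apart from Slc2a6, each was above background on that 1 array alone, and members of that kind were named for it.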

How the results depend on the processing

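Of the 34 called members, 25 were called in all 14 alternative settings, 8 of the higher and 17 of the lower, and none changed direction. These lower ones include the 9 above background in no EpiSC line, whose spread there is that of background values. The higher ones include Slc16a13, Slc22a23, Slc46a3 and Slc5a5, which were not above background in R1. For members above background on 1 side only, the sign was fixed in advance, so keeping it is no support. Every setting used the same R1 array. The counts, 16 higher and 18 lower, stayed at 12 to 18 and 18 to 22 over the settings. Calls of single lines numbered 1, Slc15a2 in E3, and were 2 with no detection filter and 0 to 1 when 1 line was left out, 0 being without E3 itself, which leaves no E3 to test. The median SD over the lines, 0.34, was 0.43 in the deposited values, 0.19 without background correction, which compresses dim signals, and 0.31 to 0.35 when 1 line was left out. Without OG2.1 and OG2.2 there were 13 calls higher and 18 lower. No paired analysis was possible because each line had 1 array and every column of the table carries the same replicate number, which pairs no arrays. A block for the slide was not run because the table names no slides. R1 was the 1 ESC line, so cell type, line and array cannot be told apart, and levels near the background floor of an array are bounds.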
